A study of Mus musculus with 6 samples.

Results

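Chromatin accessibility was examined at 86 promoter regions of 82 protein-coding genes that encode splicing factors or RNA helicases, out of 63430 regions in the whole table. The members were chosen by name and position: genes whose symbol begins with Srsf, Hnrnp, Sf3, Snrp, Ddx or Dhx (without the antiviral sensors Ddx58 and Dhx58), with a region centred within 1000 bp of the transcription start site (TSS). By family these were 10 regions of SR proteins, 17 of hnRNPs, 9 of the SF3 complexes, 7 of Sm and other snRNP proteins, 31 of DDX helicases and 12 of DHX helicases. The measurements were ATAC-seq, in which the Tn5 transposase cuts into open DNA, on mouse NIH/3T3 cells, a fibroblast line derived from embryos. The study's stated aim was to learn what part degradation of an mRNA plays in transcriptional adaptation. Actg1 encodes the cytoplasmic gamma-actin.

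All libraries came from NIH/3T3 cells with the genotype CRISPR-Cas13d knock-in, so both groups carried the RNA-cutting enzyme. The Actg1 guide group comprised 3 libraries of cells transfected with guide RNA specific for Actg1, and the GFP guide group comprised 3 libraries of cells that received GFP-specific guide RNA as the control. Each library held 25000 cells and was transposed for 30 min at 37 °C. The sources used here do not give the time between transfection and harvest, or say whether the knock-in line was a clone. The libraries are described as biological replicates with no statement on separate cultures, so p-values reflect only the spread among these libraries, which may be technical.

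Splicing is carried out by the spliceosome, which is built from snRNPs: Sm proteins form a ring on each small nuclear RNA, and the SF3A and SF3B complexes hold the U2 snRNP at the branch point of the intron. SR proteins mostly help exons to be recognised, hnRNPs often restrain that recognition, and DDX and DHX helicases drive the rearrangements of RNA in splicing, ribosome assembly, mRNA export, translation and decay. In mammalian cells many SR protein and hnRNP genes limit their own output through exons whose inclusion sends the transcript to nonsense-mediated decay.

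Promoter sequence was set beside accessibility for 6 genes whose regions changed, 3 of them higher and 3 lower with the Actg1 guide. The 250 bases before the RefSeq start are given, 5′ to 3′ on the gene's strand, from RefSeq on build GRCm38.p6. Capitals mark matches, on either strand, to 6 of the 10 motifs searched: ETS, SP1, NFY, CRE, NRF1 and YY1, with the letters of the first 4 given beside their shares further on. Matches to the other 4 motifs (AP-1, TEAD, TATAAA and CArG) are left in lower case. Ddx19a lies at chr8:110997824-110998073, Ddx5 at chr11:106788908-106789157, Srsf2 at chr11:116853095-116853344, Hnrnpc at chr14:52104022-52104271, Dhx15 at chr5:52190547-52190796 and Hnrnpu at chr1:178337816-178338065, all on the minus strand.
Ddx19a: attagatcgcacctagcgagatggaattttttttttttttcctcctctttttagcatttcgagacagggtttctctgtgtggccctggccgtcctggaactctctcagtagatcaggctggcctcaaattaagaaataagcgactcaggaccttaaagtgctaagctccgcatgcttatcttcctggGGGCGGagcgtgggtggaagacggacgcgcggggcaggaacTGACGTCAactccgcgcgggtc
Ddx5: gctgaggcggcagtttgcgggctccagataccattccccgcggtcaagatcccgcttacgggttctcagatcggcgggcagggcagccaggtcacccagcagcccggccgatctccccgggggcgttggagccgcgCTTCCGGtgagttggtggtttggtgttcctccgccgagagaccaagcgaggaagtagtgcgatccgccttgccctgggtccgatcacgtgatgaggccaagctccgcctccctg
Srsf2: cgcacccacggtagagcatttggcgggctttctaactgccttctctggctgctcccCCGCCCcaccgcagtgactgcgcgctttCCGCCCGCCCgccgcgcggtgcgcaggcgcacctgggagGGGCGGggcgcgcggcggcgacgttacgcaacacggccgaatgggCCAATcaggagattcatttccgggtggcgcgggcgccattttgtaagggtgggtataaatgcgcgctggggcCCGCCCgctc
Hnrnpc: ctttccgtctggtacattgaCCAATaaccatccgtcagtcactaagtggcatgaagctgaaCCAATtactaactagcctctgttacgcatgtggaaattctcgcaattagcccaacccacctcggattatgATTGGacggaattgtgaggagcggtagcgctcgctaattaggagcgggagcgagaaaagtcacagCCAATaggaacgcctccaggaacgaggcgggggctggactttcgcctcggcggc
Dhx15: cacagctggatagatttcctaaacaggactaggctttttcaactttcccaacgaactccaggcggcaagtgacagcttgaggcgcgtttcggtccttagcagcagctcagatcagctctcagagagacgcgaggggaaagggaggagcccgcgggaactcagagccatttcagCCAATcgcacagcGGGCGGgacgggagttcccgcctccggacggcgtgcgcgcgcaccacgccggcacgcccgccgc
Hnrnpu: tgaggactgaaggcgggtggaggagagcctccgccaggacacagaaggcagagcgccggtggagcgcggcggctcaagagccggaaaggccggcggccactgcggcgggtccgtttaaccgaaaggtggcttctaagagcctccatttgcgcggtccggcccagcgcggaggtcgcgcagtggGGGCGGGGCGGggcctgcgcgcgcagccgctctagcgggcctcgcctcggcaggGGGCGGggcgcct
Ddx19a, Ddx5 and Srsf2 were higher with the Actg1 guide. The Ddx19a promoter held an SP1 and a CRE match, that of Ddx5 held an ETS match on the opposite strand and a TEAD match, and that of Srsf2 held several SP1 matches, an NFY match and a TATAAA match. Hnrnpc, Dhx15 and Hnrnpu were lower. The Hnrnpc promoter held 4 NFY matches and no SP1 match, Dhx15 held an NFY and an SP1 match, and Hnrnpu held SP1 matches only. Both directions thus included promoters with and without each of SP1 and NFY. A match is a description of letters and not a binding site.

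Values are the authors' normalised signal, a read count scaled and rounded to whole numbers. Total signal per library lay between 7673745 and 7831438, and the small values gave an estimate of 5675773 to 9526172 reads in regions per library. The difference between GFP guide replicates 1 and 2 was smaller than sampling noise (chi-square per region 0.985, p = 0.990 over 50204 regions), so they entered as 1 sample and limma compared 3 Actg1 guide samples with 2 GFP guide samples. The other pairs within a group gave 1.035 to 1.124. No region was assigned to Actg1 or lay within 10 kb of it, so its locus was not analysed here, and ATAC-seq does not measure the level of its mRNA. Of 15 fibroblast marker genes 12 had promoter regions, 15 regions in all, of which 1 was higher and 6 were lower with the Actg1 guide (1 and 3 without GFP guide replicate 3). Of those, Col1a1, a collagen gene, had a signal of 453, 430 and 367 with the Actg1 guide and of 266, 246 and 254 with the GFP guide at its region 823 bp from the TSS. The Col1a1 region at 20 bp did not pass, with a log2 fold change of 0.09 at a limma adjusted p of 0.605. Of the 15 marker regions 46.7% were called, against 31.2% of protein-coding promoter regions. S100a4, another fibroblast marker, had a signal of 59, 72 and 86 with the Actg1 guide and of 180, 187 and 171 with the GFP guide at its nearer region. The 6 blood and 5 endothelial marker genes had 0 promoter regions, and the epithelial and muscle lists had 1 each, neither called. The part of these marker differences in the results below was not tested. In a bulk library, fewer cells with an open promoter and less opening per cell cannot be told apart.

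All 86 regions passed the filter on low signal (at least 10 in at least 3 libraries). With the Actg1 guide 16 regions were higher and 10 lower at a limma adjusted p under 0.05, which is 30.2% called, against 31.2% of the 9954 promoter regions of protein-coding genes that were tested. In that background 12.9% were higher and 18.3% lower, while the splicing factor and helicase regions gave 18.6% and 11.6%. Their median log2 fold change, on the log2(signal + 1) scale, was 0.05, with a range of -0.33 to 1.52, and the median of all protein-coding promoters was -0.02. Among the called regions the lowest fold was 0.805, at Dhx15, and 1 region of the 86, at Sf3a1, passed a 2-fold change. The 3 libraries of each group did not overlap at 37 regions (43% of them), 20 higher and 17 lower, against 42.8% of protein-coding promoters (17.8% higher and 25% lower). Promoters of any gene gave 32.7% called and 44% without overlap (25.2% lower), and all 61327 regions gave 41.3% and 50.8%. The share of regions called was thus near the background, and no test was made of the split by direction.

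The split depended on scaling, on single libraries and on the distance window. Quantile normalisation gave 21 higher and 6 lower, and scaling to the median of promoter regions gave 19 and 6, while the background under these became 1635 higher and 1460 lower, and 1531 and 1506. Most calls ended without GFP guide replicate 3, where the merged replicates 1 and 2 stood alone against 3 Actg1 guide samples: 4 regions were higher and 1 was lower, and 8.87% of protein-coding promoters were called. Leaving out Actg1 guide replicate 2 gave 15 higher and 5 lower regions. The 5 calls kept in every fit that left out 1 library were those of Sf3a1 at 997 bp, Ddx19a, Ddx11, Ddx5 and Hnrnpc.

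**Figure D1:**
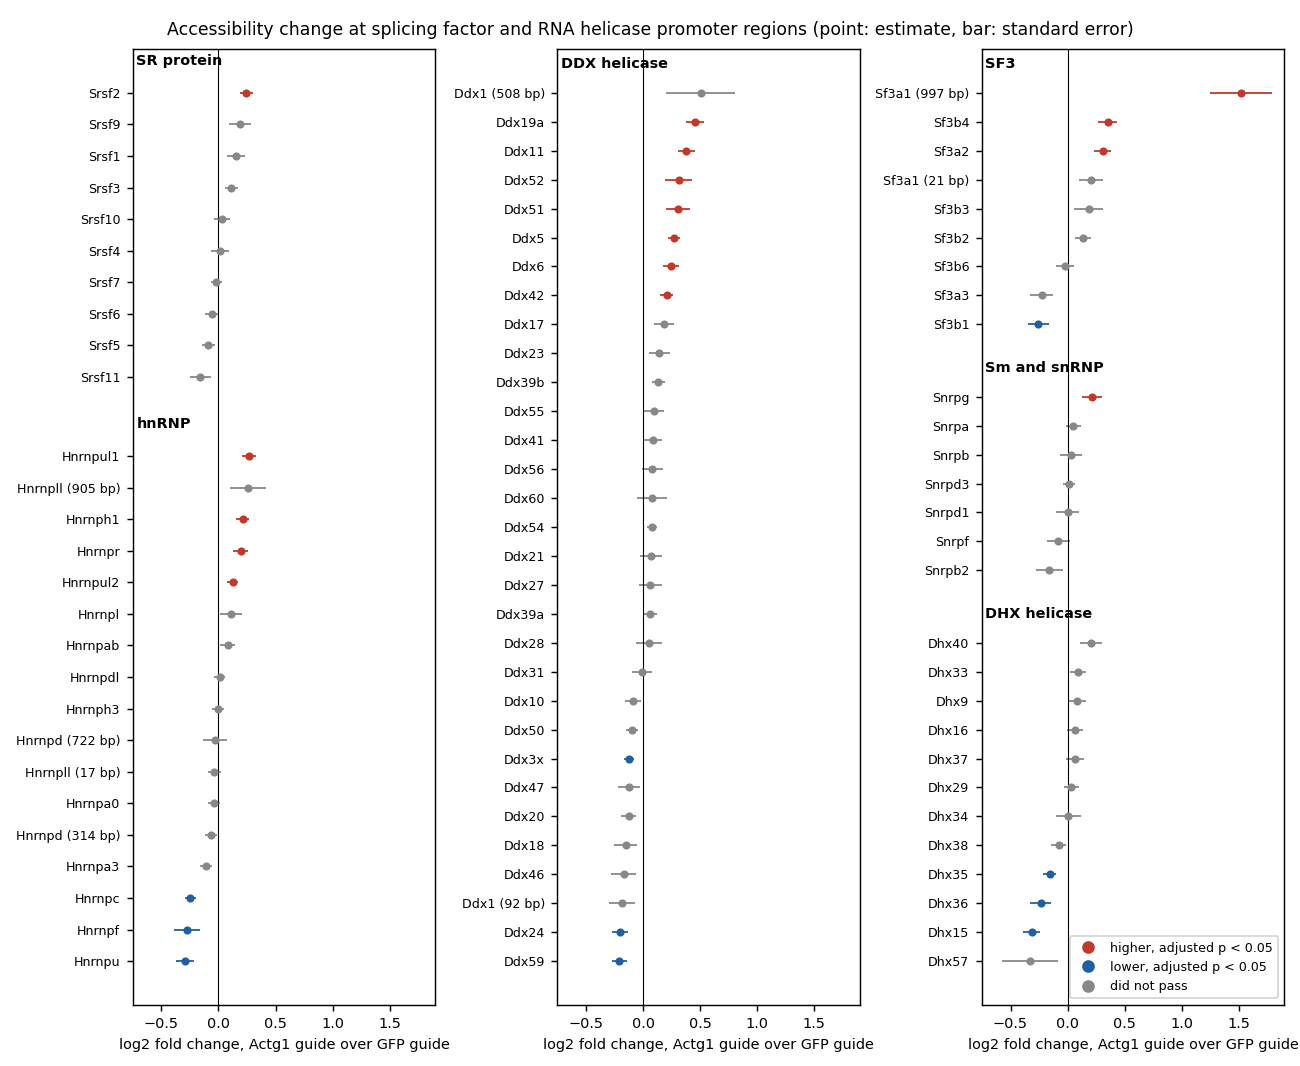
Log2 fold change of the Actg1 guide over the GFP guide for each of the 86 promoter regions, by family, with the standard error as a bar. Red points were higher and blue points lower at a limma adjusted p under 0.05, and the region of Sf3a1 at 997 bp stands apart at 1.52.

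Of the 10 SR protein promoter regions 10% were called, against 31.2% of protein-coding promoters. With the Actg1 guide 1 region was higher and none was lower, with a median log2 fold change of 0.02. It belonged to Srsf2, which binds enhancer sequences within exons and gathers in nuclear speckles. The Srsf2 region (chr11:116852402-116854041) had a signal of 768, 825 and 780 with the Actg1 guide and of 720, 700 and 628 with the GFP guide. Its 3 Actg1 guide libraries all lay above its 3 GFP guide libraries, and the log2 fold change was 0.24 with an SE of 0.055 at a limma adjusted p of 0.000409. The same region holds the start of Mfsd11, so the signal cannot be told apart between both genes. Without GFP guide replicate 3 the log2 fold change of Srsf2 was 0.155 and its limma adjusted p was 0.118. The family then had 0 called regions. It had 2 higher without Actg1 guide replicate 2 and under either other scaling, 3 higher without GFP guide replicate 2, and 1 in each direction without Actg1 guide replicate 3.

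The other 9 SR protein regions did not pass, with log2 fold changes of -0.16 at Srsf11 to 0.19 at Srsf9. At Srsf3, the smallest SR protein, the signal was 655, 608 and 621 with the Actg1 guide and 590, 574 and 578 with the GFP guide. No Actg1 guide library of Srsf3 reached down to a GFP guide library, but the difference did not pass, with a log2 fold change of 0.11 at a limma adjusted p of 0.107. Srsf5 had the opposite order, with a signal of 613, 602 and 615 with the Actg1 guide and of 646, 672 and 638 with the GFP guide, and did not pass either, with a log2 fold change of -0.09 at a limma adjusted p of 0.209. Srsf7, whose promoter had the highest signal of the family per kb after Srsf3, had a signal of 825, 806 and 788 with the Actg1 guide and of 815, 805 and 825 with the GFP guide, and the groups overlapped.

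Among the hnRNPs 4 of 17 regions were higher and 3 were lower, with a median log2 fold change of -0.0052. Their 41.2% called stood against 31.2% of protein-coding promoters, with 23.5% higher and 17.6% lower against 12.9% and 18.3%. The median turned to 0.03 under quantile normalisation, 0.02 under scaling to promoters, 0.0048 with 6 separate libraries and 0.04 without Actg1 guide replicate 2. The lower group held hnRNPs C, F and U, and the higher group hnRNP H1, hnRNP R and both hnRNP U-like proteins. hnRNP C binds tracts of uridine in introns. Its promoter (chr14:52103783-52104692) had a signal of 797, 808 and 754 with the Actg1 guide and of 898, 953 and 939 with the GFP guide. All Actg1 guide libraries lay below all GFP guide libraries, and the log2 fold change was -0.25 with an SE of 0.05 at a limma adjusted p of 9.09e-05.

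Hnrnpu encodes a large nuclear protein that binds both chromatin and RNA. Its promoter (chr1:178337412-178338102) had a signal of 255, 265 and 272 with the Actg1 guide and of 327, 292 and 337 with the GFP guide. The groups did not overlap, and the log2 fold change was -0.29 with an SE of 0.08 at a limma adjusted p of 0.00307. A further Hnrnpu region at 1117 bp, just outside the distance limit, had a signal of 330, 291 and 292 with the Actg1 guide and of 349, 323 and 347 with the GFP guide. There the groups overlapped and the difference did not pass, with a log2 fold change of -0.17 at a limma adjusted p of 0.0787. Hnrnpf encodes a relative of hnRNP H that binds runs of guanine, and its region at 398 bp had a signal of 121, 119 and 137 with the Actg1 guide and of 153, 152 and 152 with the GFP guide. Again every Actg1 guide library was lower, with a log2 fold change of -0.28 with an SE of 0.11 at a limma adjusted p of 0.0438. The call of Hnrnpu ended without GFP guide replicate 3, at a limma adjusted p of 0.122. That of Hnrnpf ended at limma adjusted p-values of 0.112, 0.106, 0.0597 and 0.196 without Actg1 guide replicates 1 and 2 and GFP guide replicates 1 and 3, and at 0.0603 and 0.0699 under quantile and promoter scaling.

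On the higher side, Hnrnpul1, a relative of hnRNP U, had a signal of 575, 577 and 569 with the Actg1 guide and of 477, 524 and 455 with the GFP guide at its promoter (chr7:25754521-25755696). Its libraries separated by guide, with a log2 fold change of 0.27 with an SE of 0.061 at a limma adjusted p of 0.000476. Hnrnph1, which binds runs of guanine as hnRNP F does, had a signal of 650, 665 and 617 with the Actg1 guide and of 594, 541 and 543 with the GFP guide at a region 801 bp from its TSS. These groups did not overlap either, and the log2 fold change was 0.21 with an SE of 0.057 at a limma adjusted p of 0.00251. Hnrnpr and Hnrnpul2 were also called; both are named here after their values were seen. Hnrnpr had a signal of 483, 484 and 494 with the Actg1 guide and of 435, 430 and 419 with the GFP guide, without overlap, and a log2 fold change of 0.19 with an SE of 0.064 at a limma adjusted p of 0.0126. Hnrnpul2 was the only called region of the 86 whose groups overlapped. Its signal was 1138, 1072 and 1102 with the Actg1 guide and 1044, 1098 and 958 with the GFP guide. The log2 fold change was 0.12 with an SE of 0.047 at a limma adjusted p of 0.0321. The Hnrnpul2 region also holds the start of Ttc9c. None of these 4 passed without GFP guide replicate 3, with limma adjusted p-values of 0.067 for Hnrnpul1, 0.0953 for Hnrnph1, 0.128 for Hnrnpr and 0.615 for Hnrnpul2, whose log2 fold change was then 0.0433. The call of Hnrnpul2 also ended without Actg1 guide replicate 1 (0.168), Actg1 guide replicate 3 (0.106) or GFP guide replicate 1 (0.0859), and with 6 separate libraries (0.0535). Without GFP guide replicate 3 the hnRNPs had 1 called region, that of Hnrnpc.

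The other 10 hnRNP regions did not pass and lay between -0.11 at Hnrnpa3 and 0.26 at the far region of Hnrnpll. Hnrnpd, whose protein binds AU-rich elements of mRNA, had 2 regions. The region at 314 bp had a signal of 738, 699 and 718 with the Actg1 guide and of 739, 771 and 750 with the GFP guide, with every Actg1 guide library lower, and did not pass, with a log2 fold change of -0.07 at a limma adjusted p of 0.317. At 722 bp the signal was 184, 160 and 193 with the Actg1 guide and 189, 149 and 197 with the GFP guide, the groups overlapped, and the log2 fold change was -0.03 at a limma adjusted p of 0.832. Hnrnpll, known for the splicing of CD45 in lymphocytes, also had 2 regions. The nearer one, at 17 bp, had a signal of 633, 684 and 597 with the Actg1 guide and of 676, 661 and 638 with the GFP guide and a log2 fold change of -0.04 at a limma adjusted p of 0.658. The farther one, at 905 bp, had a signal of 81, 62 and 81 with the Actg1 guide and of 64, 63 and 60 with the GFP guide and a log2 fold change of 0.26 at a limma adjusted p of 0.19. Both pairs of groups overlapped.

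The SF3 complexes had 3 regions higher and 1 lower of 9, with a median log2 fold change of 0.19. Their 44.4% called stood against 31.2% of protein-coding promoters, with 33.3% higher and 11.1% lower against 12.9% and 18.3%. SF3A and SF3B members were both among the higher ones, and the lower one was Sf3b1. Sf3a1 encodes the large subunit of SF3A. Its region at 997 bp (chr11:4161241-4161453), the farthest of all 86 from its TSS, had a signal of 36, 31 and 39 with the Actg1 guide and of 19, 11 and 9 with the GFP guide. Every Actg1 guide library was above every GFP guide library, and the log2 fold change was 1.52 with an SE of 0.27 at a limma adjusted p of 1.54e-05. These are low values, close to the filter, so the counting error of each is large. The 3 Actg1 guide libraries met the filter by themselves, so low GFP guide values could not have removed the region. The stronger Sf3a1 region at 21 bp, which also holds the start of Ccdc157, had a signal of 169, 203 and 172 with the Actg1 guide and of 179, 157 and 146 with the GFP guide. There the groups overlapped and the difference did not pass, with a log2 fold change of 0.21 at a limma adjusted p of 0.115.

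Sf3b4 encodes a subunit of SF3B with RNA recognition motifs, and its promoter (chr3:96172137-96173165) had a signal of 310, 279 and 273 with the Actg1 guide and of 250, 218 and 216 with the GFP guide. Every Actg1 guide library was higher, and the log2 fold change was 0.35 with an SE of 0.085 at a limma adjusted p of 0.00086. Sf3a2 encodes another subunit of SF3A, and its promoter (chr10:80797671-80798971), which also holds the start of Plekhj1, had a signal of 418, 412 and 366 with the Actg1 guide and of 336, 323 and 314 with the GFP guide. Again the groups did not overlap, and the log2 fold change was 0.31 with an SE of 0.074 at a limma adjusted p of 0.000778. Sf3b1 encodes the subunit that contacts the branch point and is often mutated in human myelodysplasia. Its promoter (chr1:55027139-55027825) had a signal of 205, 180 and 196 with the Actg1 guide and of 224, 216 and 243 with the GFP guide. All 3 Actg1 guide libraries were lower, and the log2 fold change was -0.26 with an SE of 0.094 at a limma adjusted p of 0.0249. Leaving out GFP guide replicate 3 gave a limma adjusted p of 0.0792 for Sf3b4, 0.0747 for Sf3a2 and 0.302 for Sf3b1, and left the region of Sf3a1 at 997 bp as the 1 call of the family. Sf3b1 was also not called without Actg1 guide replicate 2 (limma adjusted p = 0.0955).

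The remaining SF3 regions did not pass. Sf3a3, the third subunit of SF3A, had a signal of 152, 181 and 155 with the Actg1 guide and of 193, 199 and 184 with the GFP guide, lower in every Actg1 guide library, and a log2 fold change of -0.23 at a limma adjusted p of 0.073. Sf3b2, an SF3B subunit, had a signal of 422, 406 and 398 with the Actg1 guide and of 359, 383 and 373 with the GFP guide, higher in every Actg1 guide library, and a log2 fold change of 0.13 at a limma adjusted p of 0.112. At Sf3b3 and Sf3b6 the groups overlapped, with log2 fold changes of 0.19 and -0.03.

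Of the 7 Sm and other snRNP regions 14.3% were called, against 31.2% of protein-coding promoters. Only 1 was higher and none was lower, with a median of 0.01. It was the promoter of Snrpg, a protein of the Sm ring, which is named after its values were seen. Its signal was 266, 253 and 235 with the Actg1 guide and 202, 226 and 219 with the GFP guide. The groups did not overlap, by a narrow margin, and the log2 fold change was 0.21 with an SE of 0.087 at a limma adjusted p of 0.0471. The call ended without Actg1 guide replicate 1 or 2, at a limma adjusted p of 0.16 and 0.0894, and without GFP guide replicate 1 or 3, at 0.129 and 0.168, so the count of the family was then 0. Snrpd3, another Sm protein, with the highest signal of the family per kb, had a signal of 739, 738 and 701 with the Actg1 guide and of 709, 717 and 728 with the GFP guide and a log2 fold change of 0.01 at a limma adjusted p of 0.894. The other 5, Snrpa, Snrpb, Snrpb2, Snrpd1 and Snrpf, lay between -0.16 and 0.05, and their groups overlapped.

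The 43 helicase regions held 7 higher and 3 lower regions of 31 DDX helicases and 0 higher and 3 lower of 12 DHX helicases. That is 32.3% and 25% called, against 31.2% of protein-coding promoters, of which 12.9% were higher and 18.3% lower. Median log2 fold changes were 0.08 for DDX and 0.02 for DHX. The difference between both families was not tested. The DHX count was 1 lower region under quantile or promoter scaling, 1 without Actg1 guide replicate 3 and 0 without GFP guide replicate 3, while the DDX count was 6 without Actg1 guide replicate 2 and 3 without GFP guide replicate 3. By the role of the proteins, which follows textbook assignments, the called regions spread over every group.

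Of 13 regions of helicases that act in or with the spliceosome, 2 were higher and 2 lower (30.8% called, against 31.2% of protein-coding promoters). Under either other scaling 4 were higher and 1 lower. Ddx5 is known for roles in splicing, transcription and microRNA processing. Its region (chr11:106788230-106789476) had a signal of 890, 854 and 876 with the Actg1 guide and of 731, 727 and 718 with the GFP guide. The groups lay far apart compared with the spread within each, and the log2 fold change was 0.27 with an SE of 0.05 at a limma adjusted p of 2.26e-05. The region also holds the start of Cep95. Ddx42, a helicase that associates with SF3B, had a signal of 642, 650 and 635 with the Actg1 guide and of 562, 600 and 532 with the GFP guide at a region (chr11:106216058-106217385) shared with the start of Ccdc47. These groups did not overlap, and the log2 fold change was 0.21 with an SE of 0.058 at a limma adjusted p of 0.00321.

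Dhx15, which takes the spliceosome apart after splicing, had a signal of 362, 372 and 312 with the Actg1 guide and of 414, 417 and 449 with the GFP guide at its promoter (chr5:52189822-52191384). All Actg1 guide libraries were lower, and the log2 fold change was -0.31 with an SE of 0.075 at a limma adjusted p of 0.000766. Dhx35, found in the catalytic spliceosome, had a signal of 550, 533 and 537 with the Actg1 guide and of 599, 570 and 620 with the GFP guide. It was lower in each Actg1 guide library, with a log2 fold change of -0.16 with an SE of 0.059 at a limma adjusted p of 0.0289. Leaving out GFP guide replicate 3 put the limma adjusted p at 0.142 for Ddx42, 0.122 for Dhx15 and 0.272 for Dhx35. Dhx35 was also not called without Actg1 guide replicates 2 (limma adjusted p = 0.0615) or 3 (0.064), without GFP guide replicate 1 (0.0699), or under quantile (0.0705) or promoter scaling (0.0592). The 9 other regions of the group did not pass, from -0.17 at Ddx46 to 0.18 at Ddx17. Ddx23, the helicase of the U5 snRNP, had a signal of 205, 206 and 234 with the Actg1 guide and of 198, 191 and 194 with the GFP guide, without overlap, and a log2 fold change of 0.14 at a limma adjusted p of 0.227. Ddx20, the Gemin3 subunit of the SMN complex, had a signal of 431, 438 and 413 with the Actg1 guide and of 482, 465 and 460 with the GFP guide, lower throughout, and a log2 fold change of -0.13 at a limma adjusted p of 0.115.

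Among 15 regions of helicases of ribosome biogenesis, 2 were higher and 1 was lower (20% called, against 31.2% of protein-coding promoters). Ddx52, whose yeast relative acts in the small subunit, had a signal of 136, 128 and 129 with the Actg1 guide and of 100, 121 and 100 with the GFP guide at its promoter (chr11:83941919-83942382). The Actg1 guide libraries were all higher, with a log2 fold change of 0.31 with an SE of 0.12 at a limma adjusted p of 0.0293. Ddx51, of the large subunit pathway, had a signal of 169, 177 and 177 with the Actg1 guide and of 149, 163 and 127 with the GFP guide at a region that also holds the start of Noc4l, itself a ribosome biogenesis gene. Its groups did not overlap, and the log2 fold change was 0.31 with an SE of 0.11 at a limma adjusted p of 0.0185. Ddx24, which acts in the nucleolus, had a signal of 426, 395 and 431 with the Actg1 guide and of 504, 453 and 481 with the GFP guide. It was lower in every Actg1 guide library, with a log2 fold change of -0.20 with an SE of 0.066 at a limma adjusted p of 0.0122. These 3 calls rested on several libraries. The limma adjusted p of Ddx52 was 0.0866 without Actg1 guide replicate 1, and 0.111 and 0.237 without GFP guide replicates 1 and 3. For Ddx51 it was 0.0623 and 0.06 without Actg1 guide replicates 2 and 3, and without GFP guide replicate 3 the log2 fold change was 0.159 at 0.377. For Ddx24 it was 0.0522 without Actg1 guide replicate 2, and 0.059 and 0.123 without GFP guide replicates 1 and 3.

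Ddx18, Ddx47 and Ddx50 were lower in all Actg1 guide libraries than in any GFP guide library, but did not pass. Ddx50, a nucleolar helicase, had a signal of 676, 703 and 720 with the Actg1 guide and of 737, 746 and 754 with the GFP guide and a log2 fold change of -0.10 at a limma adjusted p of 0.144. Ddx54, also nucleolar, had a signal of 1072, 1052 and 1057 with the Actg1 guide and of 1028, 1041 and 973 with the GFP guide, higher in every Actg1 guide library, and a log2 fold change of 0.08 at a limma adjusted p of 0.158, and it passed under quantile normalisation (limma adjusted p = 0.0142).

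The 9 regions of helicases of mRNA export, translation and decay held 2 higher and 2 lower ones (44.4% called, against 31.2% of protein-coding promoters). Ddx19a, of the family of the export factor Dbp5 of yeast, had a signal of 345, 342 and 346 with the Actg1 guide and of 256, 289 and 231 with the GFP guide at its promoter (chr8:110997558-110998523). The 3 Actg1 guide values were close together and all above the GFP guide values, and the log2 fold change was 0.46 with an SE of 0.08 at a limma adjusted p of 1.12e-05. Ddx6, which represses translation and promotes decapping in P-bodies, had a signal of 475, 472 and 448 with the Actg1 guide and of 413, 394 and 381 with the GFP guide at a long region (chr9:44603484-44605503). The groups did not overlap, and the log2 fold change was 0.24 with an SE of 0.066 at a limma adjusted p of 0.00258.

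Ddx3x, which helps ribosomes to scan structured leaders, had a signal of 1077, 1049 and 1126 with the Actg1 guide and of 1153, 1177 and 1193 with the GFP guide. It was lower in every Actg1 guide library, with a log2 fold change of -0.12 with an SE of 0.044 at a limma adjusted p of 0.0238. Dhx36, which unwinds G-quadruplexes, had a signal of 199, 206 and 198 with the Actg1 guide and of 245, 245 and 229 with the GFP guide. It was lower without overlap, with a log2 fold change of -0.24 with an SE of 0.09 at a limma adjusted p of 0.0321. The call of Ddx6 ended without GFP guide replicate 3 (limma adjusted p = 0.0938). That of Ddx3x ended at limma adjusted p-values of 0.071, 0.0882 and 0.216 without Actg1 guide replicates 1 and 2 and GFP guide replicate 3, at 0.153 with a log2 fold change of -0.072 under quantile normalisation, and at 0.0576 under promoter scaling. For Dhx36 they were 0.0696, 0.0607 and 0.0872 without Actg1 guide replicates 1 and 3 and GFP guide replicate 3, and 0.0594 and 0.0568 under quantile and promoter scaling.

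Ddx1, a helicase of the tRNA ligase complex, had 2 regions in this group, neither of which passed. At 92 bp the signal was 128, 138 and 142 with the Actg1 guide and 151, 137 and 166 with the GFP guide, and the log2 fold change was -0.19 at a limma adjusted p of 0.182. At 508 bp it was 18, 22 and 23 with the Actg1 guide and 12, 11 and 18 with the GFP guide, and the log2 fold change was 0.51 at a limma adjusted p of 0.182. The groups overlapped at both.

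Another 5 helicase regions came from the remaining role list, of helicases of mitochondria, germ cells, DNA or the antiviral response and of Ddx59. Among them 1 was higher and 1 lower (40% called, against 31.2% of protein-coding promoters). Ddx11 encodes a DNA helicase needed for cohesion of sister chromatids. Its promoter (chr17:66123283-66124265) had a signal of 389, 379 and 382 with the Actg1 guide and of 287, 291 and 300 with the GFP guide. The groups were well separated, and the log2 fold change was 0.38 with an SE of 0.072 at a limma adjusted p of 4.09e-05. Ddx59, linked in human to ciliary signalling disease, had a signal of 465, 399 and 458 with the Actg1 guide and of 531, 526 and 488 with the GFP guide and was lower in every Actg1 guide library, with a log2 fold change of -0.21 with an SE of 0.068 at a limma adjusted p of 0.0127. Without Actg1 guide replicate 2 its log2 fold change was -0.138 (limma adjusted p = 0.107), and without GFP guide replicate 3 the limma adjusted p was 0.08. Dhx57 had the most negative estimate of all members, with a signal of 43, 27 and 21 with the Actg1 guide and of 33, 33 and 41 with the GFP guide, but its groups overlapped and it did not pass, with a log2 fold change of -0.33 at a limma adjusted p of 0.288. Dhx40, in none of the role lists, had a signal of 194, 197 and 187 with the Actg1 guide and of 144, 183 and 171 with the GFP guide, without overlap, and did not pass either, with a log2 fold change of 0.20 at a limma adjusted p of 0.0897.

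**Figure D2:**
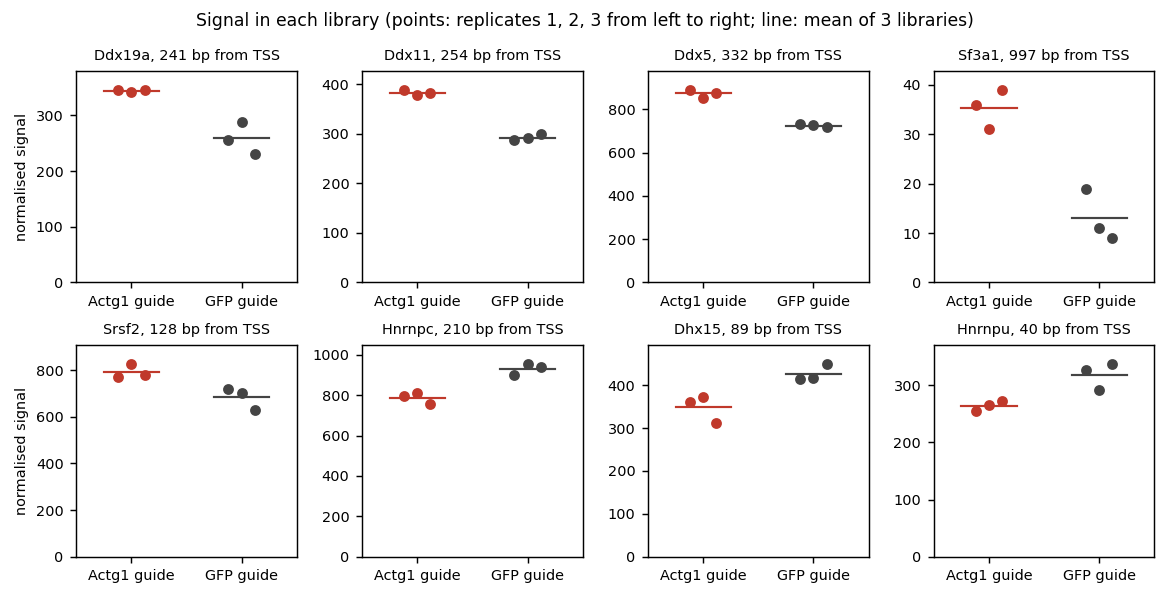
Normalised signal in each library for 8 called promoter regions, with the 3 Actg1 guide libraries in red on the left and the 3 GFP guide libraries in grey on the right of each panel, and a line at the mean of 3. In Ddx19a, Ddx11, Ddx5, Sf3a1 and Srsf2 every red point lies above every grey one, and in Hnrnpc, Dhx15 and Hnrnpu every red point lies below.

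Per kb of region, averaged over the 6 libraries, the signal had a median of 339.5 and ranged from 92.7 to 943. The 3 highest were Hnrnpc at 943, Ddx54 at 867 and Ddx50 at 830 signal per kb. The 3 lowest were the far regions of Ddx1 at 92.7 and of Sf3a1 at 113.5, and the promoter of Sf3b3 at 128.5. By family the median per kb was highest for hnRNPs, at 461, and lowest for the Sm and snRNP genes, at 261. Sf3b3, the scaffold of SF3B, had a signal of 113, 96 and 113 with the Actg1 guide and of 100, 90 and 93 with the GFP guide, with overlapping groups, and did not pass, with a log2 fold change of 0.19 at a limma adjusted p of 0.259. Across the 86 regions, log2 fold change and mean signal had a Spearman correlation of -0.08, against -0.07 over the 9954 protein-coding promoters.

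The higher regions lay farther from the start than the lower ones. Within 50 bp of the TSS 1 region was higher and 4 were lower of 24, at 50 to 200 bp 4 were higher and 4 lower of 29, and at 200 to 1000 bp 11 were higher and 2 lower of 33. In the last class that is 33.3% and 6.06%, against 16.6% and 17.3% of 3697 protein-coding promoter regions at the same distance. The nearest class had 4.17% higher and 16.7% lower, against 11.7% and 19% of protein-coding promoter regions. The middle class had 13.8% and 13.8%, against 10.2% and 18.9%. The median distance was 247.5 bp for the higher and 85.5 bp for the lower regions, and their median lengths were 1176 and 767.5 bp. The order was the same over all protein-coding promoters, with median distances of 187 and 133 bp and lengths of 927 and 876.5 bp. Over the 86 regions, log2 fold change and distance had a Spearman correlation of 0.36, against 0.08 over all 9954. Regions share libraries and longer regions reach farther, so this is a description with no test, and the part of region length was not tested. The distance classes were added with the calls known. Leaving out GFP guide replicate 3, the counts were 0 and 0, 0 and 0, and 4 and 1. The nearest class held 0 and 2 without Actg1 guide replicate 2, and 0 and 5 without Actg1 guide replicate 3. The middle class held 3 and 2 without Actg1 guide replicate 1, and 5 and 2 without Actg1 guide replicate 2. Under quantile normalisation the near, middle and far classes held 2 higher and 3 lower, 6 and 2, and 13 and 1, and under promoter scaling 1 and 3, 5 and 2, and 13 and 1. In the far class 15 were higher without GFP guide replicate 2, and the lower count was 1 without Actg1 guide replicate 1 or 2 or GFP guide replicate 1.

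At the edge of the distance limit, the members just inside were Sf3a1 at 997 bp and Hnrnpll at 905 bp, given above, and the regions just outside were Hnrnpu at 1117 bp and Ddx55 at 1270 bp. The Ddx55 region had a signal of 41, 26 and 34 with the Actg1 guide and of 16, 20 and 14 with the GFP guide, and every Actg1 guide library was higher.

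**Figure D3:**
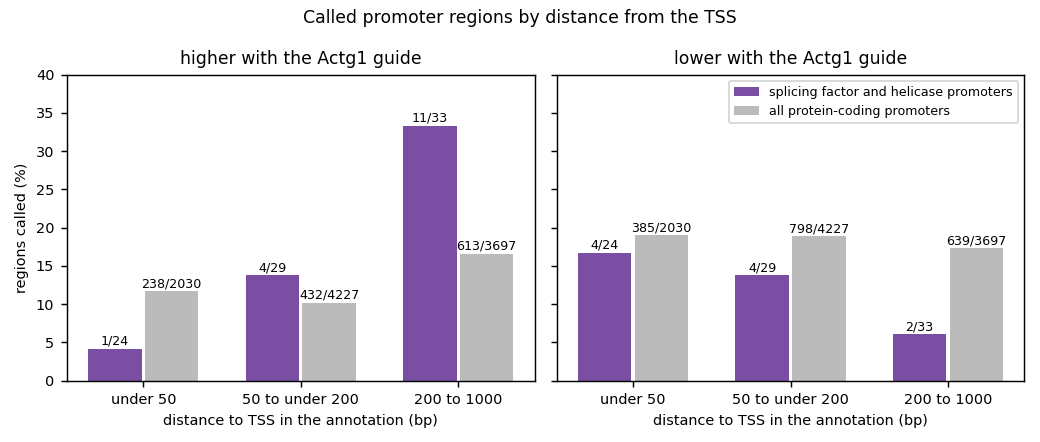
Percent of promoter regions called higher (left) and lower (right) with the Actg1 guide, by distance to the TSS, for the 86 splicing factor and helicase regions in purple and all protein-coding promoters in grey, with counts over each bar. At 200 to 1000 bp 11 of 33 purple regions were higher and 2 of 33 lower, while the grey bars are close to each other.

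The RefSeq start of another protein-coding gene lay inside 20 of the 86 regions. Of these 6 were higher and 0 lower, against 29.7% called of protein-coding promoters with another start. They were Hnrnpul2, Ddx42, Srsf2, Ddx5, Sf3a2 and Ddx51, whose partners are named above. Of the 66 regions with no other start, 10 were higher and 10 lower. Over all protein-coding promoters, those with another start were 15.6% higher and 14.2% lower, and those without were 12.5% and 18.8%. The counts without GFP guide replicate 3 were 1 and 0 with another start, and 3 and 1 without. Regions with another start gave 4 and 1 without Actg1 guide replicate 3. The regions with no other start gave 10 and 5 without Actg1 guide replicate 2, 14 and 6 under quantile normalisation, and 13 and 6 under promoter scaling.

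The sequence of promoters was compared for the 69 member regions that hold the RefSeq start of their gene, and for 6628 protein-coding promoter regions matched in the same way. The other 17 members were not matched. The ETS motif CCGGAAG occurred in the 250 upstream bases of 26 of 69 members, 37.7%, against 15.7% of all matched promoters. CRE (TGACGTCA) occurred in 7.25% against 3.06%, SP1 (GGGCGG) in 73.9% against 65.5% and NFY (CCAAT) in 43.5% against 37.8%. TEAD (GGAATG) was found in 10.1% of both and the letters TATAAA in 5.8% against 5.34%. AP-1 (TGANTCA) was found in 0 of 69 members, against 4.16% of all, CArG in 0 against 1.09%, YY1 in 0 against 0.634%, and NRF1 in 2.9% against 1.9%. Both strands were searched, and a CArG match may hold an NFY or TATAAA match. Median GC content was 60.8% in the members and 61.2% in all. No match says only that these letters are not in this window.

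The motif content of the called promoters rests on few sequences. ETS occurred in 3 of 11 higher and 2 of 9 lower promoters that were matched, and in 21 of 49 that were not called. NFY occurred in 7 of 11 higher and 4 of 9 lower ones, and in 19 of 49 not called. Over all matched promoters NFY occurred in 36.9% of the higher and 38.4% of the lower, and ETS in 16.3% and 13.5%. CRE occurred in 3 of 11 higher ones, among them the Ddx19a promoter printed above, in 1 of 9 lower ones, and in 1 of 49 not called. Over all matched promoters the CRE shares were 3.05% of the higher and 2.25% of the lower.

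**Figure D4:**
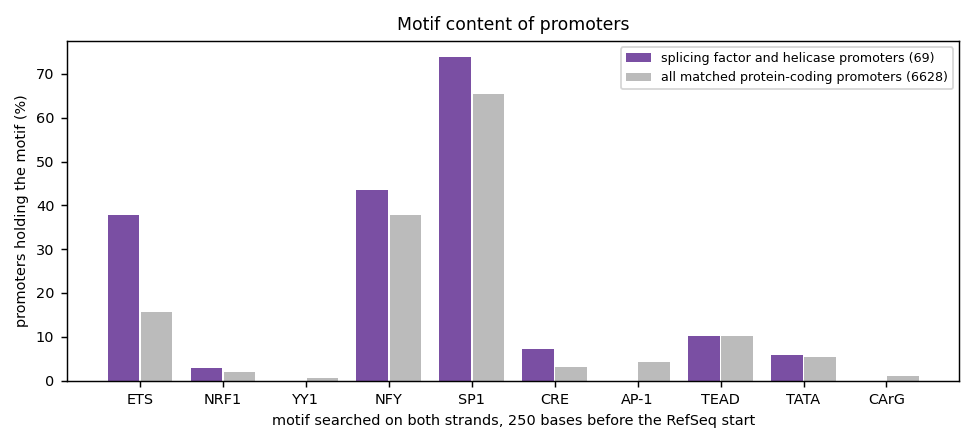
Percent of promoters whose 250 bases before the RefSeq start hold each motif on either strand, for 69 splicing factor and helicase promoters in purple and 6628 matched protein-coding promoters in grey. The widest gap is at ETS, 37.7% against 15.7%.

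Several genes of these families were reached only under another name. RefSeq lists 104 protein-coding genes with these symbols, of which 22 had no member region. For 9 of those a promoter region carries the name of a neighbour. It was found by overlap with the promoter window of the gene, a stretch around its RefSeq start. The start itself may lie outside the region. The best known is Hnrnpk, which binds runs of cytosine. Its promoter window overlaps the region assigned to Rmi1 (chr13:58401482-58403215). That region had a signal of 821, 821 and 805 with the Actg1 guide and of 975, 1001 and 1018 with the GFP guide. All Actg1 guide libraries were lower, and the log2 fold change was -0.30 with an SE of 0.048 at a limma adjusted p of 2.41e-06. The promoter window of Hnrnpa1, a splicing repressor, overlaps the region assigned to Cbx5. This Cbx5 region had a signal of 1583, 1486 and 1504 with the Actg1 guide and of 1391, 1451 and 1344 with the GFP guide. It was higher without overlap, with a log2 fold change of 0.14 with an SE of 0.04 at a limma adjusted p of 0.00404. Dhx32 shares the region assigned to Fank1, with a signal of 144, 145 and 127 with the Actg1 guide and of 171, 165 and 170 with the GFP guide, lower throughout, and a log2 fold change of -0.29 with an SE of 0.11 at a limma adjusted p of 0.0293. The regions that overlap the promoter windows of Hnrnpa2b1, Hnrnph2, Ddx49, Dhx30, Snrpd2 and Snrpn did not pass. The call for Hnrnpa1 ended without GFP guide replicate 3 (limma adjusted p = 0.179). The call for Dhx32 ended without Actg1 guide replicate 3 (0.0938) or GFP guide replicates 1 (0.0502) or 3 (0.181).

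Other genes of the splicing pathway were read from lists of non-members. Of 45 promoter regions of 44 other spliceosome genes, 15 were higher and 3 lower (40% called), against the 31.2% of protein-coding promoters given above, with a median log2 fold change of 0.13. Ppil1, a prolyl isomerase of the spliceosome, had the largest called rise, with a signal of 233, 261 and 251 with the Actg1 guide and of 176, 184 and 169 with the GFP guide. It was higher in all Actg1 guide libraries, with a log2 fold change of 0.51 with an SE of 0.091 at a limma adjusted p of 1.71e-05. Prpf4, of the tri-snRNP, had the largest called fall, with a signal of 320, 360 and 329 with the Actg1 guide and of 416, 387 and 398 with the GFP guide, also without overlap, and a log2 fold change of -0.25 with an SE of 0.073 at a limma adjusted p of 0.00499. The counts of this list were 9 and 4 without Actg1 guide replicate 1 and 5 and 0 without GFP guide replicate 3, where Prpf4 had a limma adjusted p of 0.0842.

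Of 38 regions of other splicing regulators, 10 were higher and 5 lower (39.5% called, against 31.2% of protein-coding promoters), with a median of 0.08. Higher calls made up 26.3% and lower calls 13.2%, against 12.9% and 18.3%. Mbnl2, a muscleblind splicing regulator, had a signal of 395, 423 and 415 with the Actg1 guide and of 529, 538 and 529 with the GFP guide. It was far lower than any GFP guide library in each Actg1 guide library, with a log2 fold change of -0.37 with an SE of 0.065 at a limma adjusted p of 9.94e-06. Clk1, a kinase of SR proteins, had a signal of 36, 58 and 46 with the Actg1 guide and of 38, 36 and 27 with the GFP guide at a weak region 935 bp from its TSS. Here the groups overlapped, and the log2 fold change was 0.52 with an SE of 0.21 at a limma adjusted p of 0.0458. That call ended without Actg1 guide replicate 2 (limma adjusted p = 0.245) or 3 (0.12), without GFP guide replicate 2 (0.0634) or 3 (0.485, with a log2 fold change of 0.301), with 6 separate libraries (0.0536) and under quantile normalisation (0.0575). The list gave 6 and 4 without Actg1 guide replicate 2, 9 and 3 without Actg1 guide replicate 3, and 3 and 2 without GFP guide replicate 3.

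Of 12 regions of other RNA helicases 2 were higher and 2 lower (33.3% called, against 31.2% of protein-coding promoters), with a median of -0.11. Upf1, the helicase of nonsense-mediated decay, had a signal of 266, 250 and 234 with the Actg1 guide and of 180, 202 and 170 with the GFP guide. Each Actg1 guide library was higher, and the log2 fold change was 0.47 with an SE of 0.092 at a limma adjusted p of 6.1e-05. Eif4a2, a helicase of translation initiation, had a signal of 606, 617 and 586 with the Actg1 guide and of 724, 635 and 666 with the GFP guide and was lower in every Actg1 guide library, with a log2 fold change of -0.16 with an SE of 0.056 at a limma adjusted p of 0.0202. Eif4a2 was not called without Actg1 guide replicate 3 (limma adjusted p = 0.0687), GFP guide replicate 1 (0.137) or GFP guide replicate 3 (0.0971), or under quantile normalisation (0.0623). The list then gave 2 and 0 without Actg1 guide replicate 3 or GFP guide replicate 1, and 1 and 0 without GFP guide replicate 3. It gave 1 and 2 without Actg1 guide replicate 1, 1 and 3 without Actg1 guide replicate 2, and 2 and 4 without GFP guide replicate 2.

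The genes of snRNP assembly and maturation had 0 higher and 4 lower of 12 regions, with a median of -0.14. That is 33.3% called, against 31.2% of protein-coding promoters, of which 12.9% were higher and 18.3% lower. Phax, the adaptor that exports small nuclear RNAs for assembly, had a signal of 393, 339 and 369 with the Actg1 guide and of 498, 481 and 516 with the GFP guide. All Actg1 guide libraries were lower by a wide margin, and the log2 fold change was -0.46 with an SE of 0.07 at a limma adjusted p of 1.13e-06. The list gave 0 and 1 without GFP guide replicate 3, 1 and 3 without replicate 2 of either guide, and 2 and 3 under quantile normalisation.

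**Figure D5:**
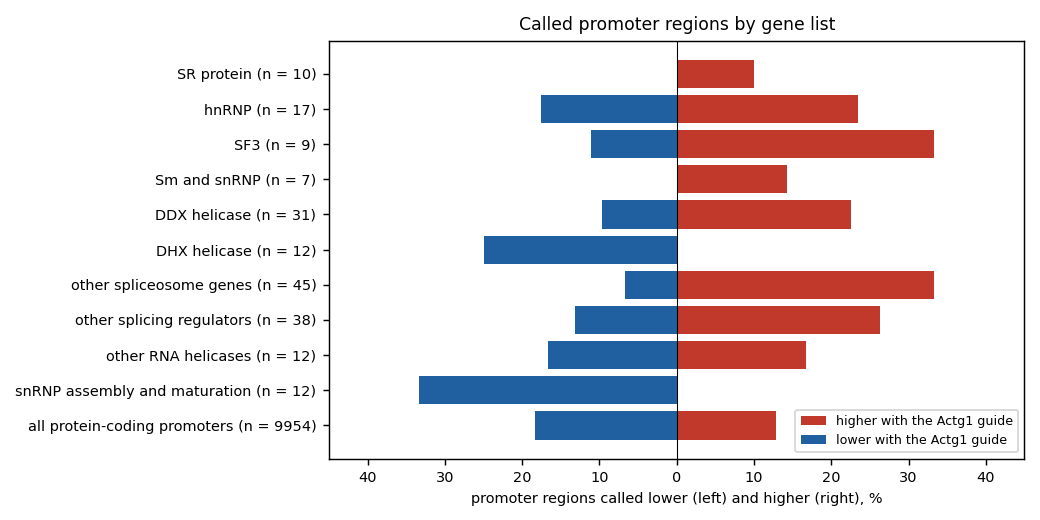
Percent of promoter regions called lower (blue, to the left of 0) and higher (red, to the right) with the Actg1 guide, for each family of members, for the lists of related genes and for all protein-coding promoters, with the number of regions beside each name. The DHX helicases and the snRNP assembly list show lower regions only, at 25% and 33.3% of 12 regions each. All protein-coding promoters show 12.9% higher and 18.3% lower, and the other spliceosome genes 33.3% higher and 6.67% lower.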

How the data were processed

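ATAC-seq of 6 libraries was analysed. Per the submitters' processing notes, the build was mm10, and they name DESeq, DESeq2 1.36.0, featureCounts, Picard 3.0.0, STAR 2.7.10a and Trimmomatic 0.39, whose roles are unstated; the sources used here do not give peak calling, Tn5 offset handling or the normalisation formula. The authors deposited 1 table with a signal per region and library, which by its values is a scaled and rounded read count, and with the distance to the TSS of 1 assigned gene. The fraction of each region inside the gene body was deposited too and enters no result. As the values are normalised, limma 3.58.1 (R 4.3.3, with Python 3.11.15 for summaries) was fitted with a trend to log2(signal + 1) over 61327 regions that reached a signal of 10 in 3 or more libraries. Benjamini-Hochberg adjustment ran over all of them, and regions were called under 0.05. Fold changes set the Actg1 guide over the GFP guide and understate changes of low regions. The fit was tested on simulated data. GFP guide replicates 1 and 2 were averaged. The members and lists were chosen with earlier results of these data known. Named in full were up to 12 of the largest called changes in each direction, the 3 highest and 3 lowest signals per kb, genes with 2 regions, called helicases of role lists with at most 4 calls, and the largest called change in each direction of each list of non-members. Promoter sequence came from RefSeq (GRCm38.p6). Alternatives were pseudocounts of 0.1 and 5, other filters, 2 other scalings, separate libraries with and without a replicate block, a 0.2 kb window and leaving out each library.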

Additional observations from a re-analysis of the deposited data

How the results depend on the processing

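Pseudocounts of 0.1 and 5 and the filters tried left all 26 calls in place. For the region of Sf3a1 at 997 bp the filters were no test of the call. Its Actg1 guide libraries alone met the strictest filter, so it was kept because of the group in which it was higher. Quantile normalisation gave 6 member regions lower, a median log2 fold change of 0.0796, 2 SR protein and 1 DHX region called; scaling to the median of promoter regions gave 6, 0.073, 2 and 1. A window of 0.2 kb gave 2091 promoter regions called, 5 member regions higher, a median of 0.0078, and 2 hnRNP, 2 SF3, 0 Sm and snRNP and 5 DDX regions. Of the 10 lower regions, those of Hnrnpc at 210 bp and Hnrnpf at 398 bp lay outside this window. Inside it the lower calls outnumbered the higher ones. The same held over protein-coding promoters, with 11.7% higher and 19% lower under 50 bp, and 10.2% and 18.9% at 50 to 200 bp. Leaving out 1 library gave 12793 to 24706 regions called (25323 with all), 1233 to 3684 promoter regions, 4 to 21 member regions higher, 1 to 11 lower and a median of 0.0344 to 0.0565. By family it gave 0 to 3 SR protein, 1 to 8 hnRNP, 1 to 4 SF3, 0 to 1 Sm and snRNP, 3 to 12 DDX and 0 to 4 DHX regions. The low ends of these counts came without GFP guide replicate 3, where 21 of 26 calls ended with 35% to 128% of their log2 fold change kept; that fit has 1 GFP guide sample, assumed to vary as the Actg1 guide samples do. The 0 of the Sm and snRNP family came without Actg1 guide replicate 1 or 2 or GFP guide replicate 1 as well. With replicates 1 and 2 as separate samples, an alternative chosen after seeing the data, leaving out GFP guide replicate 3 gave 14 higher and 9 lower, and the far region of Ddx1 passed (0.809, limma adjusted p = 0.0413). Among named regions that were not called, 2 changed sign. Hnrnpll at 17 bp was at 0.00555 under quantile normalisation and between -0.0871 and 0.0108 with 1 library left out, above 0 without Actg1 guide replicate 3. Hnrnpd at 722 bp was at 0.0114 with 6 separate libraries, with or without the replicate block, between -0.112 and 0.078 with 1 library left out (above 0 without Actg1 guide replicate 2 or GFP guide replicate 1 or 3), and 0.0881 in the added alternative. The cause of these shifts was not tested.

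Deviations from the group means correlated weakly between libraries of the same replicate number, at 0.025, 0.014 and 0.016. Between libraries of different numbers the correlations were -0.017 to -0.000. Whether the numbers mark paired libraries was not tested. With the replicate number as a block, 28725 regions and 4544 promoter regions were called, with 18 member regions higher and 12 lower. The 6 separate libraries without the block gave 28176, 4355, 17 and 11. Low signal, as at the far regions of Ddx1 and Sf3a1, limits precision there.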

Other observations

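Genes of the same families, with or without a member region, had 16 regions beyond 1 kb from the TSS, of which 5 were higher with the Actg1 guide and 0 lower, against 22.9% higher and 15.9% lower of 5058 such regions of protein-coding genes (38.8% called). Hnrnpl encodes a splicing regulator that binds CA repeats, and its region 2392 bp from the TSS had a signal of 608, 575 and 553 with the Actg1 guide and of 473, 507 and 448 with the GFP guide. The groups did not overlap, and the log2 fold change was 0.30 with an SE of 0.062 at a limma adjusted p of 0.000116, while the Hnrnpl promoter region at 681 bp, with a signal of 229, 224 and 197 with the Actg1 guide and of 193, 217 and 196 with the GFP guide, did not pass. Ddx23 had a region at 1724 bp with a signal of 95, 97 and 70 with the Actg1 guide and of 60, 60 and 52 with the GFP guide, higher throughout, and a log2 fold change of 0.62 with an SE of 0.16 at a limma adjusted p of 0.00141. The far region of Ddx55 at 1270 bp, described with the distance limit, had a limma adjusted p of 0.00156. Snrpc, which encodes the U1 snRNP protein U1-C and had no member region, had a signal of 282, 287 and 265 with the Actg1 guide and of 232, 239 and 238 with the GFP guide at 1874 bp, without overlap, and a log2 fold change of 0.23 with an SE of 0.083 at a limma adjusted p of 0.0228. A weak region 4699 bp from the Snrpb start had a signal of 25, 24 and 22 with the Actg1 guide and of 11, 14 and 15 with the GFP guide and a log2 fold change of 0.75 with an SE of 0.29 at a limma adjusted p of 0.0343. These 5 are all the called regions of the set and were chosen for their calls. Without GFP guide replicate 3 none passed, at a limma adjusted p of 0.0518 for Hnrnpl, 0.114 for Ddx23, 0.0863 for Ddx55, 0.121 for Snrpc and 0.0857 for Snrpb, and the count was 0. The higher and lower counts were 3 and 1 without Actg1 guide replicate 1, 3 and 0 without Actg1 guide replicate 2, and 3 and 0 with a minimum signal of 30. Snrpc and Snrpb were also not called without Actg1 guide replicate 1 (limma adjusted p = 0.0641 and 0.086) or 2 (0.0626 and 0.0597), and Snrpb without GFP guide replicate 1 (0.0722).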
